A study of Homo sapiens with 36 samples.

Results

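The EZH2 and SUZ12 peaks of DU145 cells carrying a control hairpin were compared, replicate 1 with replicate 1 and replicate 2 with replicate 2. The comparison took the 4 ChIP-seq samples of the series labelled EZH2 or SUZ12 in the control condition, out of 36 samples in all, and every peak in their deposited lists. These lists held 5051 peaks, out of 110359 in the 10 control lists that also cover H3K27me3, PHF19 and MTF2. The series comes from a study of PHF19 in prostate cancer, in which DU145, an established human prostate cancer line, received a lentiviral control hairpin (shCTR) or a hairpin against the long form of PHF19 (shPHF19L#4). Only shCTR cells were used here, and all 4 lists come from that 1 cell line. The question was how far the peaks of 2 subunits of the same complex coincide, and what sets the peaks that they share apart from the peaks called for 1 subunit alone.

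Polycomb repressive complex 2 (PRC2) methylates lysine 27 of histone H3, a mark of genes that are kept silent. EZH2 is its catalytic subunit, and SUZ12 is the scaffold that holds the core together and joins it to accessory subunits such as PHF19 and MTF2. In mammalian cells the complex gathers at unmethylated CpG islands, above all at the promoters of developmental regulators, and high EZH2 levels are known from aggressive prostate tumours.

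Each peak carries a MACS score, which grows with the evidence for enrichment over the control library. EZH2 had 2060 peaks in replicate 1 and 1236 in replicate 2, and SUZ12 had 1523 and 232. The lowest score was 50.02 in both EZH2 lists, 50.01 for SUZ12 in replicate 1 and 50.36 for SUZ12 in replicate 2. Median scores were 74.7 and 139.6 for EZH2 and 66.8 and 94.3 for SUZ12. No read totals come with the lists. The depth behind a peak is therefore unknown, and a region without a peak is a region below the calling threshold and not a region shown to be free of the protein. A peak is called shared when it overlaps, by at least 1 base, a peak of the other subunit in the same replicate. Peaks without such an overlap are called EZH2-only or SUZ12-only.

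Sequence from 5 leading regions is shown so that the DNA under the highest-ranking calls can be seen. These regions do not stand for the median peak of replicate 1, where shared EZH2 peaks held a median of 2 CG in their central 300 bases. The 2 highest-ranking regions called in all 4 lists that lie over a promoter are EMX1 (chr2:73144190-73144489) and NTNG2 (chr9:135038320-135038619). The highest-ranking one without a promoter lies outside protein-coding genes near NBPF16 (chr1:148854756-148855055). LHX5 (chr12:113904415-113904714) holds the highest EZH2-only peak of replicate 2. AKAP6 (chr14:33283195-33283494) holds the highest SUZ12-only peak of replicate 1. All are 300 bases of the plus strand of GRCh37 (hg19), taken as close as possible to the centre of the stretch common to the peaks without touching an annotated exon, with each CG dinucleotide in capitals. The windows of EMX1, NTNG2, LHX5 and AKAP6 lie in introns of those genes.
EMX1: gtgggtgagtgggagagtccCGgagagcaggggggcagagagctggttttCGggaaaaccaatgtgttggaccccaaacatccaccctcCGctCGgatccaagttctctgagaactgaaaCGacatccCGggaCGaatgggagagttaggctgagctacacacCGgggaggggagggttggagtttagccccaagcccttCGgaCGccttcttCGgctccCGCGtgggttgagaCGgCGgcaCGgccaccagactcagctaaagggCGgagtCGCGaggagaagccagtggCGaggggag
NTNG2: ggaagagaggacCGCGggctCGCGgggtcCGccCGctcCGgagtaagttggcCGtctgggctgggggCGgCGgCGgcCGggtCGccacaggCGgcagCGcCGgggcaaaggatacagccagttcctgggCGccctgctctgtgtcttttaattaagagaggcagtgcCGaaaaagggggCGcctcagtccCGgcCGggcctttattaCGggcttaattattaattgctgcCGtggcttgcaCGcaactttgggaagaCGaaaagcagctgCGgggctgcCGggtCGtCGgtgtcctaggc
Region near NBPF16: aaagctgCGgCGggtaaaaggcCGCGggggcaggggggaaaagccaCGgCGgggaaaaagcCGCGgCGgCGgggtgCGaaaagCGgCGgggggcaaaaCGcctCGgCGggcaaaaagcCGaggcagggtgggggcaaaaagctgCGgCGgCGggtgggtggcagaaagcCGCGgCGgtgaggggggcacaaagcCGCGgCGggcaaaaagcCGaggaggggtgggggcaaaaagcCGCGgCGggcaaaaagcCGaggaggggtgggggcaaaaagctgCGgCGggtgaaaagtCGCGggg
LHX5: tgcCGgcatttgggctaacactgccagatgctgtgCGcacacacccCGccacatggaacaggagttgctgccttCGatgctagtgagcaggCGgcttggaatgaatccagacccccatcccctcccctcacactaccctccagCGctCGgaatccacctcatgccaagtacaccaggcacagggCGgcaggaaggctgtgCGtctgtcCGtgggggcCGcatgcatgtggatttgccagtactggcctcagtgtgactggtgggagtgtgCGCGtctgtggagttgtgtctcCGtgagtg
AKAP6: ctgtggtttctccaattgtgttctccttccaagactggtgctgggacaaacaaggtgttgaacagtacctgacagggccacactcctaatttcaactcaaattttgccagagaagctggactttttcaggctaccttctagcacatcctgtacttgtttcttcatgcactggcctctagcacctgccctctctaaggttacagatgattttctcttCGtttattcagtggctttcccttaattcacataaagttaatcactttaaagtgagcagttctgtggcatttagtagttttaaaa

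CG dinucleotides numbered 20 in the EMX1 window, 29 at NTNG2 and 35 near NBPF16. LHX5, with a peak for EZH2 and none for SUZ12, held 14. The AKAP6 window held 1, below the genome's mean of 2.96 per 300 bases. LHX5 thus held fewer CG than each of the shared windows and more than AKAP6. Each is a single window and does not stand for its class. GC content was 61.0% at LHX5 and 42.0% at AKAP6.

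The lists of replicate 1 stand apart from those of replicate 2 in where their peaks lie. Chromosome 14 held 779 EZH2 peaks of replicate 1, which is 37.8% of the list, and 733 SUZ12 peaks, which is 48.1%. In replicate 2 the same chromosome held 3.48% of EZH2 peaks and 3.02% of SUZ12 peaks, near its 3.47% of the genome. Chromosome 5 held 14.0% of the EZH2 peaks and 20.6% of the SUZ12 peaks of replicate 1. After these positions were seen, stretches of 1 Mb that hold at least 10 EZH2 and SUZ12 peaks of replicate 1 together were marked as dense. There were 44 of them, covering 1.42% of the genome, with 14 on chromosome 14 between 28 and 53 Mb and 17 on chromosome 5 between 13 and 46 Mb. Of the printed windows, AKAP6 lies in a dense stretch.

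**Figure D1:**
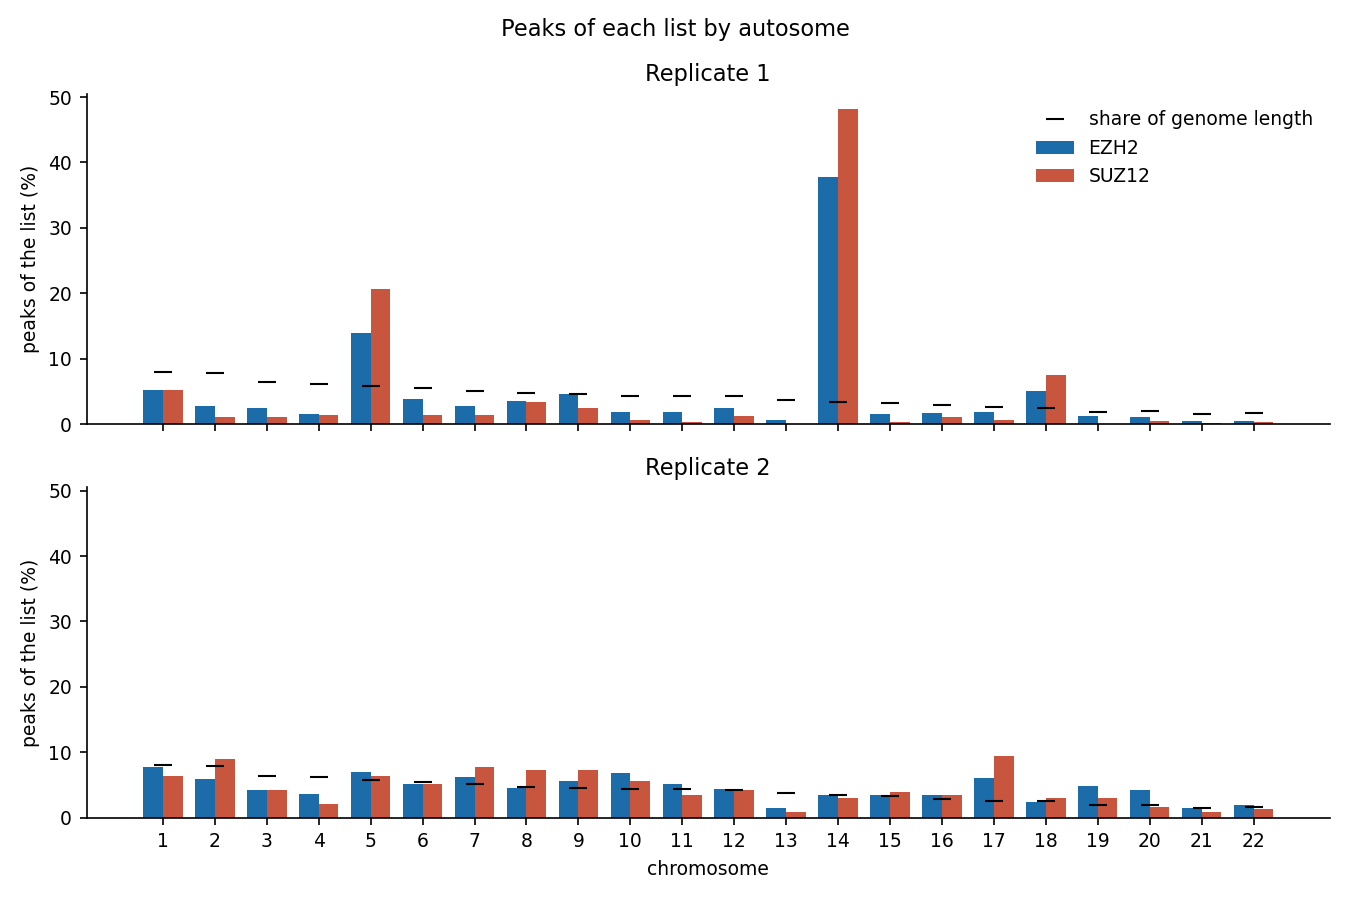
Share of each peak list on each autosome, in percent of the list's peaks, for EZH2 (blue) and SUZ12 (red), with replicate 1 above and replicate 2 below. Black marks give each chromosome's share of the genome length, and chromosome 14 holds 37.8% of EZH2 and 48.1% of SUZ12 peaks of replicate 1.

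Dense stretches held 1118 EZH2 peaks (54.3%) and 1120 SUZ12 peaks (73.5%) of replicate 1, counts that the choice of stretches itself raises. They held 33 EZH2 peaks (2.67%) and 4 SUZ12 peaks (1.72%) of replicate 2. Among the other lists, the MTF2 list of replicate 1 had 31.3% of its peaks there, against 3.65% in replicate 2. H3K27me3 had 4.98% and 4.88%, and PHF19 had 6.53% and 5.68%. Peaks in the dense stretches of replicate 1 were poor in CG, with a median CpG ratio (observed over expected CG) of 0.153 for EZH2 and 0.148 for SUZ12, against 0.236 for the genome. Of these EZH2 peaks 63.2% overlapped H3K27me3 and 2.15% overlapped PHF19. The main results over all peaks are therefore set beside the same values outside the dense stretches.

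The subunits overlapped to different degrees depending on which list was asked. In replicate 1, 630 of 2060 EZH2 peaks (30.6%) were shared, and in replicate 2 it was 204 of 1236 (16.5%), with a mean of 23.5% ± 9.95 (SD, n = 2). Of the SUZ12 peaks, 638 of 1523 (41.9%) were shared in replicate 1 and 212 of 232 (91.4%) in replicate 2, with a mean of 66.6% ± 35.0 (SD, n = 2). Nearly every SUZ12 peak of replicate 2 thus lay on an EZH2 peak. The lists differ in length, and 232 SUZ12 peaks can overlap few of 1236 EZH2 peaks. With the 232 highest-scoring peaks of each list, the shares of replicate 2 were 66.8% of EZH2 and 70.3% of SUZ12, and those of replicate 1 were 39.2% and 42.2%. By length, shared bases made up 27.4% of EZH2 and 47.6% of SUZ12 in replicate 1, and 14.1% of EZH2 and 91.7% of SUZ12 in replicate 2.

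Without the dense stretches, the shared share of replicate 1 fell to 107 of 942 EZH2 peaks (11.4%) and 110 of 403 SUZ12 peaks (27.3%). The corresponding shares of replicate 2 were 16.8% and 92.1%. Lists of different replicates were also set against each other. SUZ12 peaks of replicate 2 were overlapped by EZH2 peaks of replicate 1 in 181 of 232 cases (78.0%), more often than by SUZ12 peaks of replicate 1, which covered 65 (28.0%). SUZ12 peaks of replicate 1 were overlapped by EZH2 peaks of replicate 2 in 90 of 1523 cases (5.91%), and in 86 of 403 (21.3%) outside the dense stretches. The mean over the crossed pairs was 7.84% of EZH2 and 42.0% of SUZ12 peaks. With 2 libraries per subunit an exact permutation test cannot give a p under 1 in 3, so no test was run and values stand per replicate.

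Shared peaks had higher scores than single-subunit peaks in all 4 lists. The median score of EZH2 peaks was 103 when shared and 68.6 when EZH2-only in replicate 1, and 610.0 and 113 in replicate 2, so the difference was 34.7 and 497, with a mean of 266 ± 327 (SD, n = 2). For SUZ12 the medians were 86.5 shared and 61.0 single in replicate 1, and 103 and 55.3 in replicate 2, a mean difference of 36.6 ± 15.7 (SD, n = 2). The direction was the same in both replicates for both subunits, and the size of the EZH2 difference varied between replicates by more than its mean. With the 232 highest-scoring peaks of each list, the EZH2 difference was 72.4 in replicate 1 and 257 in replicate 2, and the SUZ12 difference was 27.9 and 60.5. Outside the dense stretches the EZH2 medians of replicate 1 were 314 and 71.0, and those of SUZ12 were 75.9 and 56.1.

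Peaks ordered by score showed the same pattern. EZH2 peaks of replicate 2, cut into 5 score groups of near-equal size, were shared in 0.403% of cases in the lowest group, 4.86% in the middle group and 64.4% in the highest. For EZH2 in replicate 1 the share went from 17.0% in the lowest to 56.6% in the highest group, and from 1.59% to 43.4% outside the dense stretches. For SUZ12 in replicate 1 it went from 20.7% to 82.3%, and from 6.17% to 67.9% outside. In replicate 2, 66.0% of the lowest group of SUZ12 peaks were shared and 100% of the 3 highest groups, which means that each of the SUZ12-only peaks there scored below 82.29.

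**Figure D2:**
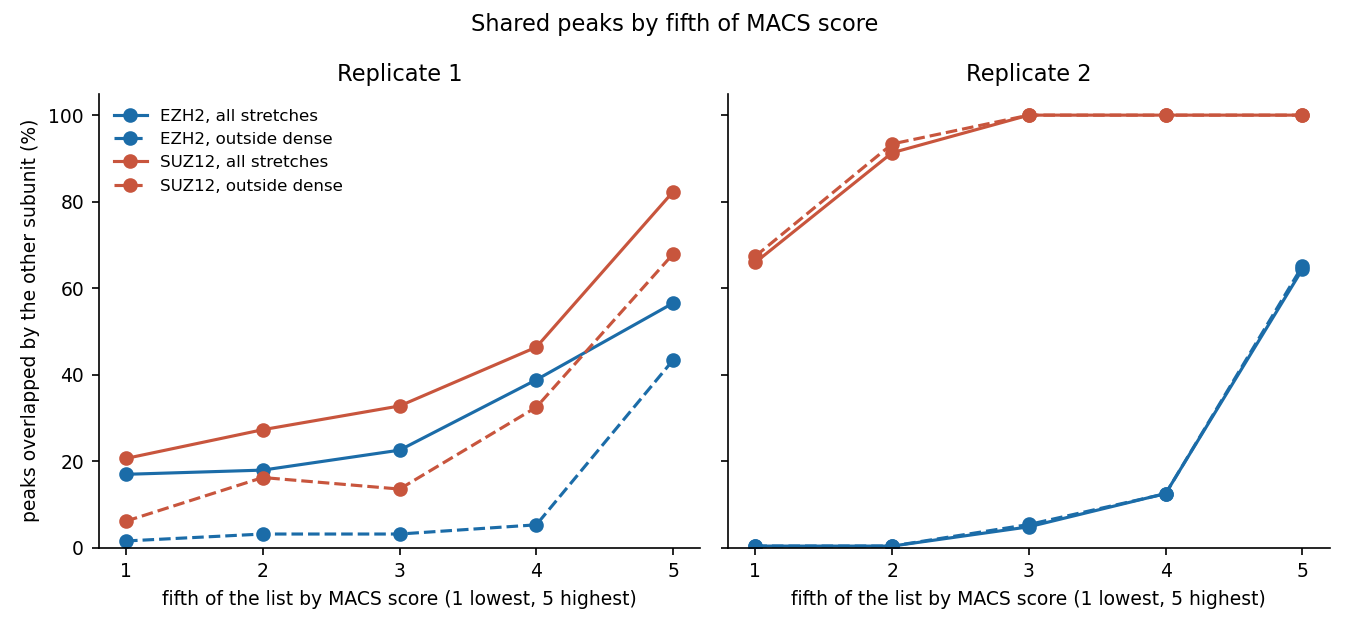
Percent of peaks overlapped by the other subunit (vertical axis) in 5 groups of each list ordered by MACS score (horizontal axis), for EZH2 (blue) and SUZ12 (red), with all stretches as solid lines and the genome outside the dense stretches as dashed lines. The highest group holds the largest shared share in each line, and in replicate 2 the SUZ12 lines reach 100%.

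Shared peaks were also wider. Shared EZH2 peaks had a median width of 1947.5 bp against 1318.5 bp for EZH2-only peaks in replicate 1, and 3384.5 bp against 1962.5 bp in replicate 2, a mean difference of 1025.5 ± 561 bp (SD, n = 2). Shared SUZ12 peaks measured 1656 bp against 952 bp in replicate 1 and 1868 bp against 1474.5 bp in replicate 2, a mean difference of 549 ± 219.6 bp (SD, n = 2). Both mean differences exceeded the spread between replicates. With the 232 highest-scoring peaks of each list, the EZH2 difference was 654 bp in replicate 1 and 152 bp in replicate 2. The SUZ12 difference was then 409.5 bp and 409 bp. Without the dense stretches the EZH2 difference was 1471 bp in replicate 1 and 1436 bp in replicate 2, and the SUZ12 difference was 1252.5 bp and 402.5 bp.

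**Figure D3:**
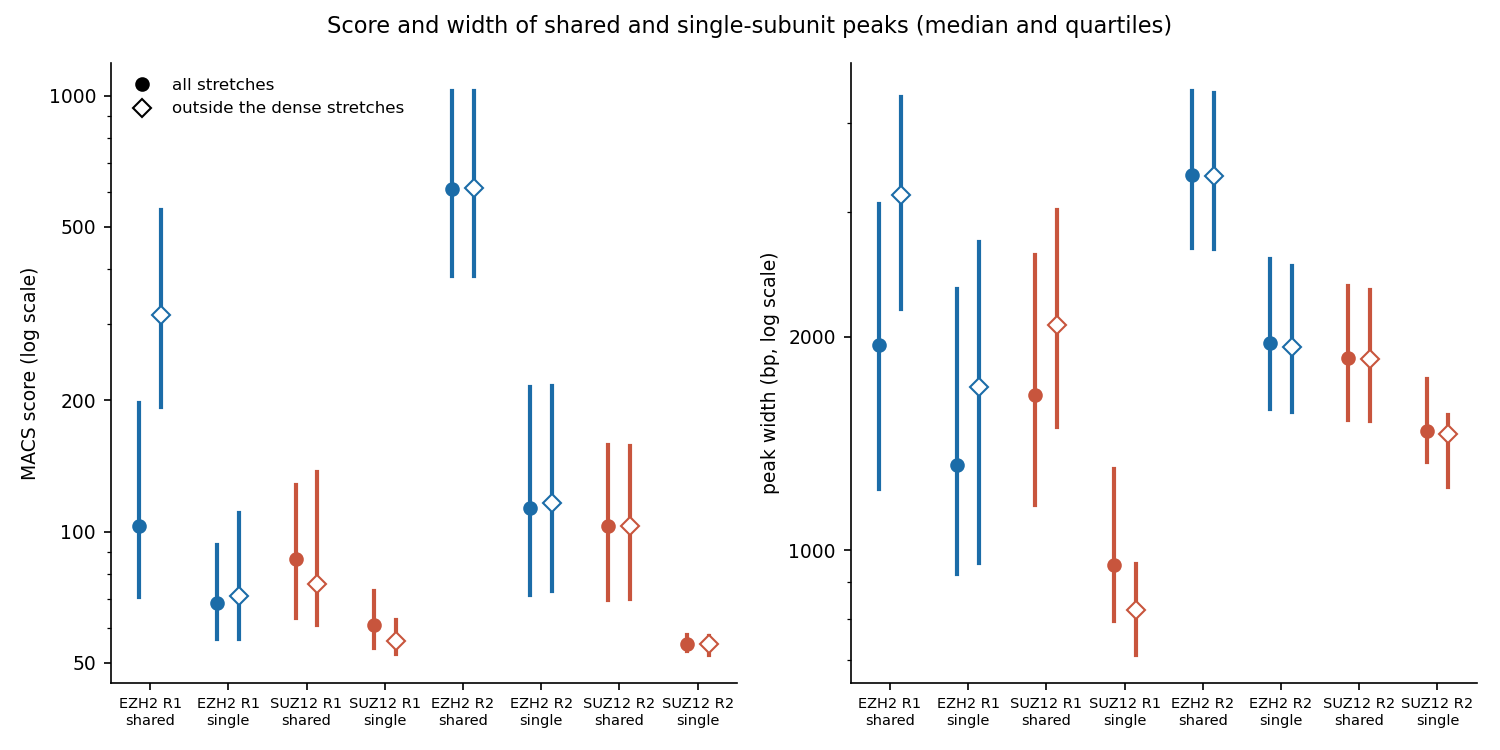
MACS score (left) and peak width in bp (right), both on log axes, of shared and single-subunit peaks in each list, with R1 and R2 for the replicates. Points are medians, bars run from the lower to the upper quartile, filled circles take all stretches and open diamonds the genome outside the dense stretches. Shared peaks have the higher median in each pair.

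Where the subunits met, the SUZ12 peak mostly lay within the EZH2 peak in replicate 2 and, outside the dense stretches, in replicate 1. In replicate 2, 198 of 212 shared SUZ12 peaks (93.4%) were wholly inside an EZH2 peak, and 2 of 204 shared EZH2 peaks were inside a SUZ12 peak. In replicate 1 it was 253 of 638 (39.7%), which rose to 89 of 110 (80.9%) outside the dense stretches and was 31.1% within them. Over all pairs of overlapping peaks, the midpoints lay a median of 313.5 bp apart in replicate 1 and 215 bp in replicate 2, and the EZH2 peak was 1.13 and 1.70 times as wide. The median gap from an EZH2-only peak to the nearest SUZ12 peak was 2897432 bp in replicate 2. In replicate 1 it was 116898 bp over all stretches, 2188404 bp outside the dense stretches and 4279 bp within them, where 63.9% of EZH2-only peaks had a SUZ12 peak within 10 kb. SUZ12-only peaks lay a median of 892391.5 bp from EZH2 in replicate 2. In replicate 1 that gap was 20432 bp over all stretches, 358152 bp outside the dense stretches and 8206 bp within them, where 54.6% had an EZH2 peak within 10 kb.

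Joined overlapping peaks gave 582 shared regions in replicate 1 and 204 in replicate 2. Over these the highest EZH2 score and the highest SUZ12 score had a Spearman rank correlation of 0.429 in replicate 1 and 0.741 in replicate 2, with a mean of 0.585 ± 0.220 (SD, n = 2). Pearson correlation was 0.427 and 0.815. Outside the dense stretches of replicate 1 the rank correlation was 0.501 over 106 regions, and within them it was 0.531 over 476. The regions of a replicate share their cells, and each score is set partly by its own library, so these values are descriptions without a p. The EZH2 score was the higher of the pair in 203 of 204 regions of replicate 2 (99.5%) and in 366 of 582 of replicate 1 (62.9%), or 95 of 106 (89.6%) outside the dense stretches. EZH2 scored a median of 5.13 times as high in replicate 2. In replicate 1 it scored 1.19 times as high over all stretches and 3.96 times as high outside the dense ones.

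**Figure D4:**
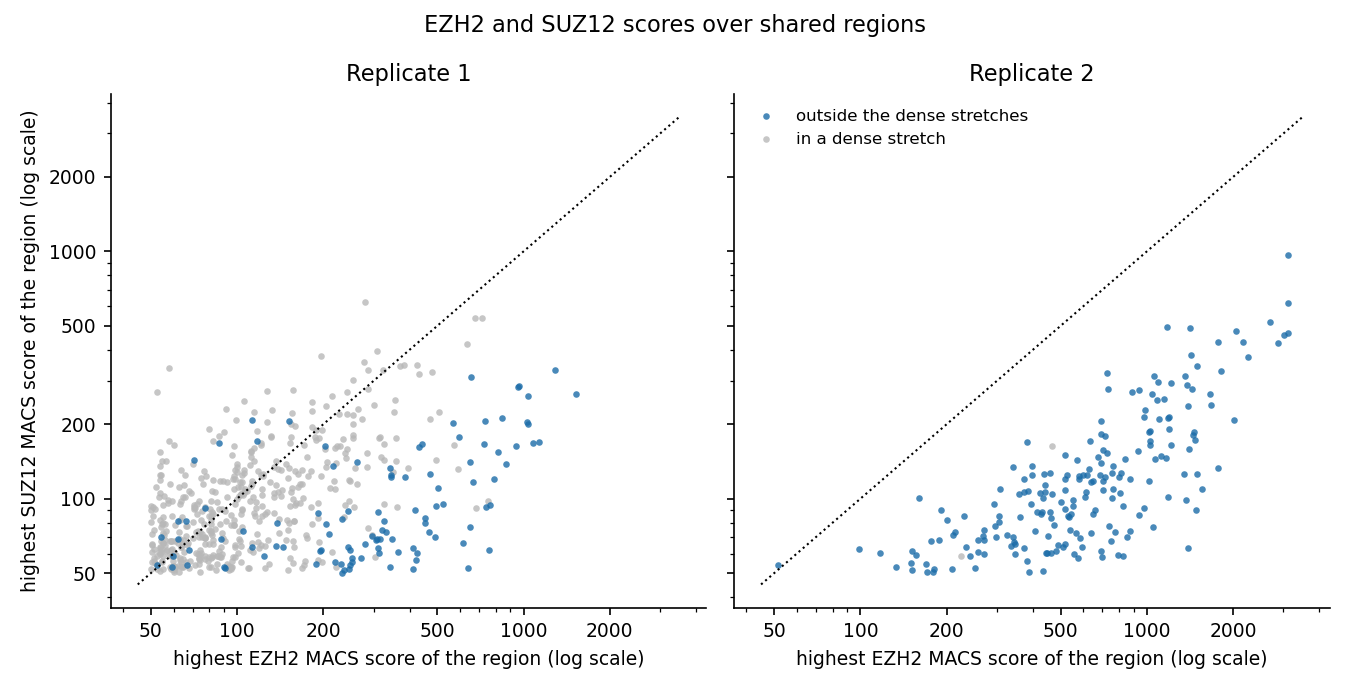
Highest MACS score of EZH2 (horizontal) and SUZ12 (vertical), on log axes, in each shared region, with replicate 1 on the left and replicate 2 on the right. Grey points lie in a dense stretch, and the dotted line marks equal scores. In replicate 2, 203 of 204 points lie below that line, and the rank correlation is 0.741.

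Outside the dense stretches, shared peaks lay over promoters more often than single-subunit peaks for both subunits, with the larger difference for SUZ12. A promoter here spans 2.5 kb to each side of a protein-coding start site. Among EZH2 peaks of replicate 2, 78.4% of shared and 73.6% of EZH2-only peaks overlapped a promoter, while in replicate 1 it was 13.0% and 32.3%. The difference was 4.79 percentage points in replicate 2 and -19.3 in replicate 1, with a mean of -7.25 ± 17.0 (SD, n = 2), so it had opposite signs and was smaller than the spread between replicates. Outside the dense stretches the sign was the same in both, with 58.9% of shared and 51.3% of EZH2-only peaks of replicate 1 over a promoter and 78.2% and 74.3% in replicate 2. With peaks of a score of at least 100 in every list the difference was -41.3 percentage points in replicate 1 and 0.157 in replicate 2, with a mean of -20.6.

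For SUZ12, a larger share of shared than of SUZ12-only peaks lay over promoters in both replicates, but not within the dense stretches of replicate 1. In replicate 2, 163 of 212 shared peaks (76.9%) and 2 of 20 SUZ12-only peaks (10.0%) overlapped a promoter. In replicate 1 it was 80 of 638 (12.5%) and 30 of 885 (3.39%), and outside the dense stretches 64 of 110 (58.2%) and 4 of 293 (1.37%). Within the dense stretches of replicate 1 it was 16 of 528 (3.03%) and 26 of 592 (4.39%). The mean difference was 38.0 ± 40.8 percentage points (SD, n = 2) over all stretches, smaller than the spread between replicates, and 61.2 ± 6.18 without the dense ones. With peaks of a score of at least 100 in every list, the difference in replicate 1 was 3.89 percentage points, against 9.15 over all its peaks. Median distance from a SUZ12-only peak to the nearest start site was 119796 bp in replicate 1 and 125361 bp in replicate 2, and 130221 and 80389.5 bp outside the dense stretches.

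CG content parted shared from SUZ12-only peaks in replicate 2 and, outside the dense stretches, in replicate 1. Shared SUZ12 peaks of replicate 2 had a median CpG ratio of 0.761 and SUZ12-only peaks 0.137. Outside the dense stretches of replicate 1 the values were 0.717 and 0.131, and over all its stretches 0.170 and 0.139. EZH2-only peaks were as rich in CG as shared ones in replicate 2, at 0.698 against 0.711, and lay between in replicate 1 outside the dense stretches, at 0.533 against 0.668. Over all stretches of replicate 1 the order was the other way, with 0.210 for EZH2-only and 0.170 for shared EZH2 peaks. The central 300 bases held a median of 31 CG in shared SUZ12 peaks of replicate 2, 27 in EZH2-only peaks of that replicate and 1 in SUZ12-only peaks. The low count of the printed AKAP6 window is no example of this contrast, since shared SUZ12 peaks in the dense stretches of replicate 1 held a median of 2.

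Overlaps with the other lists of the same replicate were highest for shared peaks in replicate 2 and, outside the dense stretches, in replicate 1. All 212 shared SUZ12 peaks of replicate 2 overlapped peaks of H3K27me3, PHF19 and MTF2, and so did all 204 shared EZH2 peaks. Of the EZH2-only peaks of replicate 2, 91.5% overlapped H3K27me3, 84.3% PHF19 and 96.9% MTF2, while of the 20 SUZ12-only peaks 2, 1 and 1 did so. In replicate 1 outside the dense stretches, shared SUZ12 peaks overlapped H3K27me3 in 88.2% of cases, PHF19 in 76.4% and MTF2 in 86.4%. SUZ12-only peaks there did so in 18.4%, 0% and 3.41% of cases, and EZH2-only peaks in 79.9%, 42.8% and 58.3%. Over all stretches of replicate 1, shared SUZ12 peaks overlapped H3K27me3, PHF19 and MTF2 in 76.8%, 15.0% and 56.1% of cases, and SUZ12-only peaks in 31.2%, 0.339% and 10.3%. Shared EZH2 peaks did so in 76.0%, 14.9% and 55.4% and EZH2-only peaks in 69.2%, 25.8% and 42.0%, so PHF19 overlapped EZH2-only peaks more often there. The lists set against these peaks differ in length between replicates. H3K27me3 covers 3.50% of the genome in replicate 1 and 0.983% in replicate 2, PHF19 covers 0.0689% and 0.543%, and MTF2 covers 0.193% and 1.504%. The 100% overlaps of replicate 2 with PHF19 and MTF2 thus rest on far longer lists than those of replicate 1.

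**Figure D5:**
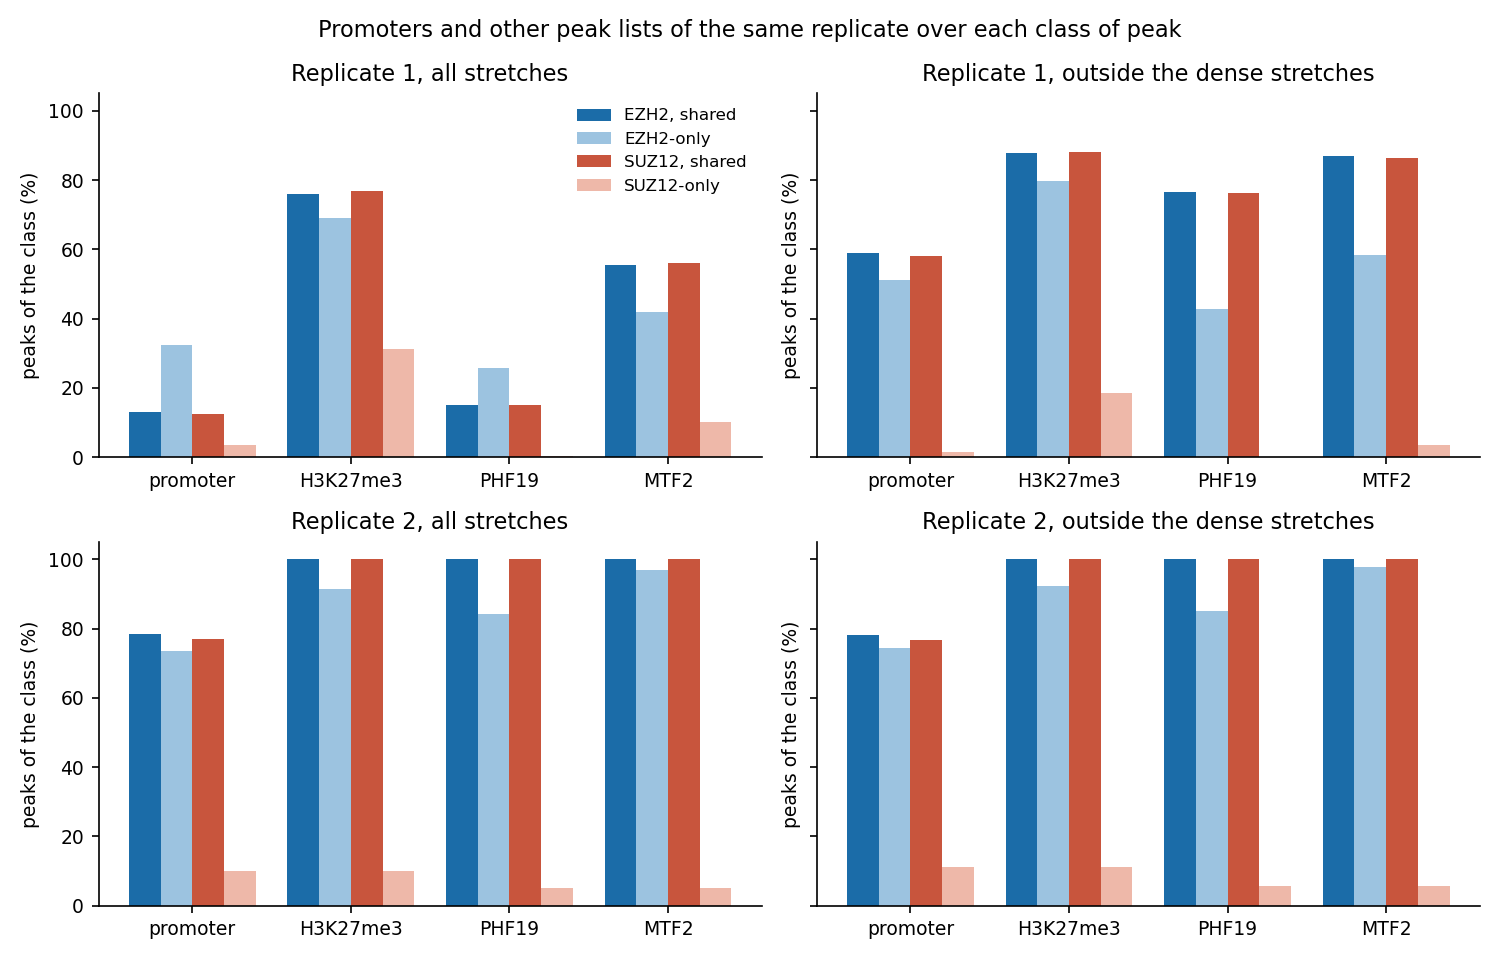
Percent of peaks (vertical axis) that overlap a promoter or a peak of H3K27me3, PHF19 or MTF2 of the same replicate, for shared and single-subunit peaks of EZH2 (blue) and SUZ12 (red), with all stretches on the left and the genome outside the dense stretches on the right. SUZ12-only bars are the lowest in each group, and shared bars of replicate 2 reach 100% for all 3 targets.

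Single-subunit peaks also differed in whether the other replicate held them. Of the EZH2-only peaks, 428 of 1430 (29.9%) of replicate 1 and 337 of 1032 (32.7%) of replicate 2 overlapped an EZH2 peak of the other replicate. Outside the dense stretches it was 419 of 835 (50.2%) and 328 of 1001 (32.8%). Shared EZH2 peaks did so in 13.7% of cases in replicate 1, in 78.5% outside its dense stretches and in 85.8% in replicate 2. Of the SUZ12-only peaks, 0 of 885 and 0 of 20 overlapped a SUZ12 peak of the other replicate, and no region was called in both SUZ12 lists without an EZH2 list. Shared SUZ12 peaks did so in 62 of 638 cases (9.72%) in replicate 1, in 62 of 110 (56.4%) outside its dense stretches and in 65 of 212 (30.7%) in replicate 2. The SUZ12 peaks of replicate 1 are set here against a list of 232 peaks, so these shares are not on the same footing as those of EZH2. EZH2 peaks of the other replicate overlapped 2 of the 885 and 0 of the 20.

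At 3 of the 6 highest EZH2-only peaks the other replicate held a SUZ12 call. In replicate 1 the highest were at KCTD1, which encodes a transcriptional repressor (EZH2 score 606), in a stretch without a protein-coding gene nearest to RRP15 (587), and at NPTX1, which encodes a neuronal pentraxin (492). All 3 carried a SUZ12 peak in replicate 2. In replicate 2 they were at LHX5, a LIM homeobox gene (1150.4), at TUBB2B, a neuronal tubulin gene, with PSMG4 beside it (1002), and at LBX1, a homeobox gene of muscle precursors (916). Those 3 carried an EZH2 peak in replicate 1 too and no SUZ12 peak in either list. Each of the 6 overlapped a promoter except the one nearest to RRP15, and each overlapped H3K27me3, PHF19 and MTF2 of its replicate.

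The highest SUZ12-only peaks of replicate 1 lay in AKAP6, which encodes an anchoring protein for protein kinase A (SUZ12 score 266), between genes 945578 bp from CELF4 (242) and in FRMD6, which encodes a FERM domain protein (226). All 3 lay in dense stretches, away from promoters, with the nearest EZH2 peak 323, 5532 and 11309 bp away. The AKAP6 peak overlapped H3K27me3 and MTF2, the FRMD6 peak overlapped MTF2, and the peak near CELF4 overlapped none of the 3 other targets. In replicate 2 the highest lay between genes on chromosome 8 nearest to YTHDF3 (76.8), and the third lay at the promoter of HTRA1, which encodes a serine protease (68.1). Of the 3 highest there, the 2 others lay away from promoters and overlapped none of H3K27me3, PHF19 and MTF2. HTRA1 was the 1 SUZ12-only peak of replicate 2 that overlapped H3K27me3, PHF19 and MTF2 together.

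A gene was taken as a target when a peak touched the span from 2.5 kb upstream of its start to its end. Among 20163 protein-coding genes, EZH2 had 660 targets in replicate 1 (3.27%) and 1017 in replicate 2 (5.04%). SUZ12 had 222 (1.1%) and 196 (0.972%). Genes that were targets of both numbered 151 in replicate 1 (0.749%) and 186 in replicate 2 (0.922%), and 53 genes (0.263%) had a peak in all 4 lists. Of the EZH2 targets, 22.9% and 18.3% were SUZ12 targets, a mean of 20.6% ± 3.25 (SD, n = 2), and of the SUZ12 targets 68.0% and 94.9% were EZH2 targets, a mean of 81.5% ± 19.0. Outside the dense stretches of replicate 1 these shares were 16.0% and 62.1%, from 592 EZH2 targets, 153 SUZ12 targets and 95 targets of both. With the 232 highest-scoring peaks of each list, 23.2% and 62.9% of EZH2 targets were SUZ12 targets in replicates 1 and 2. Of SUZ12 targets 75% and 70.9% were then EZH2 targets, so the higher share of replicate 2 did not hold at equal list length. A gene counts for both subunits when a peak of each touches its span, whether or not the peaks overlap, so these shares cannot be set against those of peaks.

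Overlapping peaks of all 4 lists joined into 3624 regions, of which 61 were called in all 4 lists. None of the 61 lay in a dense stretch. They lay on 19 chromosomes, 44 overlapped a promoter, and 59 overlapped H3K27me3, PHF19 and MTF2 in both replicates. Their median width was 4116 bp, and their median CpG ratio was 0.720. They ranked high for EZH2, with a median rank of 50 among 2060 peaks in replicate 1 and 40 among 1236 in replicate 2, and for SUZ12 in replicate 2, with a median rank of 47 among 232. Their median rank for SUZ12 in replicate 1 was 364 among 1523.

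Regions in both EZH2 lists and no SUZ12 list were more frequent, with 301, of which 249 (82.7%) overlapped a promoter and 288 overlapped H3K27me3 of both replicates. Their median EZH2 score was 92.8 in replicate 1 and 193 in replicate 2, against 455 and 1165 in the 61 regions. Another 111 regions were in both EZH2 lists and SUZ12 of replicate 2, and 26 in both EZH2 lists and SUZ12 of replicate 1. SUZ12 alone accounted for 883 regions in replicate 1 and 20 in replicate 2.

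Of the 10 leading regions by mean rank over the 4 lists, 7 overlapped a promoter. EMX1, a homeobox gene of the developing cortex, at chr2:73141219-73147822, had EZH2 scores of 1285 and 2876 and SUZ12 scores of 331 and 427 in replicates 1 and 2. NTNG2, which encodes an axon guidance protein, had 1034 and 2251 for EZH2 and 260.0 and 374 for SUZ12. FLRT2, which encodes a cell adhesion protein, held the highest EZH2 score of replicate 1 (1521), with 2016 in replicate 2 and SUZ12 scores of 266 and 209. IGF2BP3, which encodes an RNA-binding protein of embryonic tissue, had EZH2 scores of 1034 and 3001 and SUZ12 scores of 199.6 and 460.1. INHBB, which encodes a subunit of activin B, had 839.9 and 1474 for EZH2 and 213 and 173 for SUZ12. In each of these 5 the EZH2 score was above the SUZ12 score of the same replicate, and all 5 peaks overlapped the promoter. The higher EZH2 score is not particular to them. It was found in 99.5% of shared regions of replicate 2 and 89.6% outside the dense stretches of replicate 1.

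Among the 10 leading regions, 3 lay outside the span of any protein-coding gene. The first by mean rank, at chr1:148853864-148856131 and 115555 bp from the nearest start site, of NBPF16, had EZH2 scores of 953 and 3100 and SUZ12 scores of 283 and 616. The score of 3100 was the highest in that list and was given to 3 of its peaks. The others were nearest to ZNF92 on chromosome 7, with EZH2 scores of 655 and 1427, and to FOXD4L5 on chromosome 9, with 566 and 1813. In all, 12 of the 61 regions touched no target span. Their median CpG ratio was 0.895 against 0.718 for the other 49, and 6 of the 12 exceeded 0.9 against 1 of the 49, a comparison chosen after the values were seen. The printed window near NBPF16 repeats short motifs. Whether the 12 regions lie in repeated sequence, which can affect mapping and scores, was not examined.

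Some genes of the Polycomb machinery carried peaks. CBX8, which encodes a chromobox subunit of PRC1, was called in all 4 lists, with EZH2 scores of 596 and 1414 and SUZ12 scores of 178 and 489.8. CBX2, another chromobox gene, had an EZH2 peak in both replicates (81.2 and 143.7) and no SUZ12 peak. Of 14 PRC2 genes 1 (7.14%, near the 5.04% of all genes in that replicate) had a peak, EPOP, which encodes an accessory subunit, with an EZH2 score of 193 in replicate 2 and no other call.

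Genes that the study tested by ChIP-qPCR were divided by the calls. ATF3, a stress-response factor, and DUSP4, a phosphatase of MAP kinases, were called in all 4 lists. DUSP4 had EZH2 scores of 1133 and 1768 and SUZ12 scores of 169.7 and 431, and ATF3 had 525 and 1149 for EZH2 and 94.9 and 254 for SUZ12. EFNA3, an ephrin ligand, had EZH2 in both replicates (291 and 2051) and SUZ12 in replicate 2 (477). MLLT6, a fusion partner of KMT2A in leukaemia, had the same calls at lower scores, with 84.3 and 99.3 for EZH2 and 62.4 for SUZ12. IGFBP3, a carrier of insulin-like growth factors, and CYP24A1, which degrades active vitamin D, had EZH2 peaks in both replicates and no SUZ12 peak, with scores of 198.5 and 243 for IGFBP3 and 53.4 and 391 for CYP24A1. EGLN3, an oxygen sensor gene on chromosome 14, had both subunits in replicate 1 (EZH2 234, SUZ12 175) and neither in replicate 2. Its calls lie in a dense stretch, between 34 and 35 Mb, within the long annotated span of the gene. GATA2, a negative control of the study, had no peak in any list. The study chose these genes, so their calls are not independent evidence of binding.

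All genes together gave more EZH2 than SUZ12 targets, so the counts of each gene list are read against the shares over all genes. Among 115 other homeobox genes, 35 were EZH2 targets in replicate 1 and 52 in replicate 2 (30.4% and 45.2%, against 3.27% and 5.04% of all genes), and 5 and 11 were SUZ12 targets (4.35% and 9.57%, against 1.1% and 0.972%). All SUZ12 targets of that list were EZH2 targets too. Beside EMX1 they include PAX7, a regulator of muscle progenitors, with EZH2 scores of 472 and 1391 and SUZ12 scores of 126 and 62.9. In all, 5 genes of the list were targets in all 4 lists (4.35%, against 0.263% of all genes). IRX5 had EZH2 in both replicates (159.8 and 1484) and SUZ12 in replicate 2 (90.2). At ONECUT3 the EZH2 peak of replicate 2 (729) was shared, but the SUZ12 peak lay beyond the gene's target span. Of the 39 HOX genes, textbook Polycomb targets, 5 had an EZH2 peak in replicate 1 (12.8%, against 3.27% of all genes), all in the HOXD cluster. In replicate 2 it was 1 (2.56%, against 5.04%), which was HOXD13 with a score of 126, and 0 had a SUZ12 peak. In replicate 1, HOXD10 and HOXD11 were called through the same peak (score 58.5), as were HOXD12 and HOXD13 (98.3).

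Of 44 forkhead genes 10 and 13 were EZH2 targets (22.7% and 29.5%, against 3.27% and 5.04% of all genes) and 3 and 9 were SUZ12 targets (6.82% and 20.5%, against 1.1% and 0.972%), all of them also EZH2 targets. FOXC1, a regulator of mesenchyme and eye development, had EZH2 scores of 1081 and 1459 and SUZ12 scores of 168 and 187. FOXB1 and FOXI3 were also called in all 4 lists, with EZH2 scores of 444 and 1376 and of 965 and 736. FOXL2, a factor of the ovary, ranked highest in the list by its shared region of replicate 2 (EZH2 1502, SUZ12 344) and had EZH2 without SUZ12 in replicate 1 (189).

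Smaller families of transcription factors give few calls each, beside 3.27% and 5.04% of all genes for EZH2 and 1.1% and 0.972% for SUZ12. Of 19 SOX genes 6 and 7 were EZH2 targets (31.6% and 36.8%) and 2 and 2 SUZ12 targets (10.5% in each), with SOX2, a factor of stem cells, in all 4 lists (EZH2 494 and 704, SUZ12 93.6 and 158) and SOX7 shared in replicate 2 (EZH2 764, SUZ12 109). Of 17 T-box genes 2 and 3 were EZH2 targets (11.8% and 17.6%), and TBX1 was the 1 SUZ12 target in each replicate, with SUZ12 scores of 119.8 and 181. Of 6 GATA genes 3 and 4 were EZH2 targets (50% and 66.7%) and 1 and 2 SUZ12 targets (16.7% and 33.3%). GATA3, a factor of luminal epithelium, was called in all 4 lists (EZH2 667 and 1682, SUZ12 117 and 239), and GATA5 was shared in replicate 2 (EZH2 695, SUZ12 58.2). Of 21 neural bHLH genes 6 and 10 were EZH2 targets (28.6% and 47.6%) and 1 and 2 SUZ12 targets (4.76% and 9.52%), which were OLIG1 in both replicates (SUZ12 57.6 and 70.1) and NEUROD2 in replicate 2 (SUZ12 229).

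Of 41 WNT pathway genes 4 and 11 were EZH2 targets (9.76% and 26.8%, against 3.27% and 5.04% of all genes) and 2 and 1 SUZ12 targets (4.88% and 2.44%, against 1.1% and 0.972%). WNT7A (EZH2 737, SUZ12 206) and WNT6 (EZH2 236, SUZ12 51.5) were shared in replicate 1, while WNT1 was shared in replicate 2 (EZH2 702, SUZ12 117), so none was shared in both. All 3 had an EZH2 peak in both replicates. Of 40 BMP and Hedgehog genes 10 and 14 were EZH2 targets (25% and 35.0%) and 1 and 7 SUZ12 targets (2.5% and 17.5%). BMP4, named after its values were seen, was shared in both replicates, with EZH2 scores of 492 and 1118 and SUZ12 scores of 70.1 and 149. BMP7, GDF7, SHH and IHH were shared in replicate 2, with EZH2 scores of 726, 809, 713 and 939 and SUZ12 scores of 152, 127, 122 and 85.9. Each of these 4 ligand genes had EZH2 without SUZ12 in replicate 1.

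Of 77 ribosomal protein genes and 34 proteasome genes, 0 were targets of EZH2 or SUZ12 in either replicate, beside 3.27% and 5.04% of all genes for EZH2. For SUZ12, with 1.1% and 0.972% of all genes, a count of 0 is near the background.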

How the data were processed

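ChIP-seq peak lists of shCTR DU145 cells were analysed: EZH2 and SUZ12 in 2 replicates, with H3K27me3, PHF19 and MTF2 for the overlaps. The authors mapped reads with Bowtie to hg19, joined with the fly genome dm3 where spike-in was present (versions not stated), discarded reads without a unique position, and ran MACS at default settings and a shift size of 100 bp for each replicate against its own control. The methods state spike-in for EZH2 and SUZ12, but the labels name the fly antibody only in replicate 1. The score of a peak is the MACS score as deposited, and the PHF19 list of replicate 1 holds a count of tags per the file headers, not used here. MTF2 of replicate 1 holds positions only. Lists of shPHF19L#4 cells and the authors' 5 DiffBind tables were not analysed here. Read totals are not in the lists and depth is unknown.

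Peaks were intersected in Python 3.11.15 (numpy 2.4.6, pandas 2.3.3, scipy 1.17.1, pysam 0.24.0, matplotlib 3.10.9), with an overlap of at least 1 base. Genes came from GENCODE 44 lifted to GRCh37 (20163 protein-coding genes), with promoters of 2.5 kb to each side of a start site. The CpG ratio is observed over expected CG. Overlap and correlation code was tested on simulated data. Members and gene lists were chosen with earlier results of these data known. Named genes are those at up to 10 regions called in all 4 lists by mean score rank, at up to 3 of the highest single-subunit peaks of each list, at every region in both SUZ12 lists but no EZH2 list (there was none), ChIP-qPCR genes, PRC2 and PRC1 genes with a peak (not every one is described), and up to 4 members of each other list by rank of the shared region. For these other lists the rank was averaged over only the replicates in which the region was shared. No sequence from chromosome 8 is shown. Values are per replicate with mean and SD over 2 replicates, without tests. Alternatives were overlap of 50% of the shorter peak, a gap of 1 kb, a score of at least 100, equal numbers of peaks (232), crossed replicates, promoters of 1 kb or by midpoint, start sites only, mean scores, autosomes only, each replicate left out, and, chosen after seeing the data, removal of the dense stretches.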

Additional observations from a re-analysis of the deposited data

Results flagged for a closer look

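Shared and single-subunit peaks differed in opposite directions for the subunits in their median distance to the nearest start site. Shared EZH2 peaks lay farther away than EZH2-only peaks in both replicates, by 46912 and 120 bp, and the SUZ12 difference was -47624.5 and -124612 bp, so shared SUZ12 peaks lay closer. The mean EZH2 difference was 109634 bp above the mean SUZ12 difference. Without the dense stretches the EZH2 difference was -1295 bp in replicate 1 and 138.5 bp in replicate 2, so the opposition no longer held in replicate 1. The difference between the subunits was not tested.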

How the results depend on the processing

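Over 12 results, 78 alternatives and another 12 chosen after seeing the data were run. Of the 68 that do not leave out a replicate, 57 kept their sign and moved by less than the spread between replicates. For the count of regions the limit was a change of 1.5 times. The spread is a wide limit for results such as the EZH2 score difference of 266 ± 327. With a score of at least 100 in every list, 13.8% of EZH2 targets were SUZ12 targets and 24 regions were called in all 4 lists. With equal numbers of the highest-scoring peaks from each list, 53.0% of EZH2 and 56.3% of SUZ12 peaks were shared, the EZH2 width difference was 403 bp, 43.1% of EZH2 targets were SUZ12 targets and 25 regions were called in all 4 lists. Crossed replicates gave 7.84% of EZH2 peaks as shared, and targets by start sites only gave 16.5% of EZH2 targets as SUZ12 targets. Without the dense stretches, the SUZ12 width difference was 827.5 bp, 17.3% of EZH2 targets were SUZ12 targets, and the EZH2 promoter difference turned to 5.76 percentage points. The cause of these moves was not tested. At a score of at least 100, no SUZ12-only peak of replicate 2 was left. The SUZ12 score, width and promoter differences therefore had no mean over replicates at that setting. In replicate 1 they were 27.3, 695.5 bp and 3.89 percentage points.

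Leaving out either replicate gave the value of the other, which with 2 replicates is always within their spread of the mean. The ranges were 16.5% to 30.6% for EZH2 peaks shared, 41.9% to 91.4% for SUZ12 peaks shared, 34.7 to 497 for the EZH2 score difference, 25.5 to 47.7 for SUZ12, 629 to 1422 bp for the EZH2 width difference, 393.5 to 704 bp for SUZ12, -19.3 to 4.79 percentage points for the EZH2 promoter difference, 9.15 to 66.9 for SUZ12, 18.3% to 22.9% for EZH2 targets, 68.0% to 94.9% for SUZ12 targets and 0.429 to 0.741 for the rank correlation. Differences were taken within each replicate, and no paired test was run on these 2 pairs. Unknown depth and 2 replicates limit all of these values.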
